A study of Mus musculus with 3 samples.

Results

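The globin and erythroid genes of the mouse heart ventricle were followed over 3 stages of development. The members were taken by gene name from the assembled transcript annotation and comprised 9 names, which are the beta-like globins Hbb-y, Hbb-bh1, Hbb-bs and Hbb-bt, the alpha-like globins Hba-x, Hba-a1 and Hba-a2, the heme synthesis gene Alas2 and the transcription factor gene Gata1. Of these names, 7 were found, and they pointed to 7 loci of the 48626 in the expression table. Hba-a1 and Hba-a2 did not separate, since each of 2 alpha-globin loci carried both names. Hbb-bs and Hbb-bt were absent as names. Their RefSeq accessions led to an eighth locus that joins both genes and is named after Hbb-b1, Hbb-b2 and Beta-s, and it is called the adult beta-globin locus here. The members are therefore described as 8 loci, of which 3 (both Hba-a loci and the adult beta-globin locus) join more than 1 gene.

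Hemoglobin is a tetramer of alpha-like and beta-like chains, each holding a heme. In the mouse the first wave of red cells, the primitive erythrocytes of the yolk sac, carries the embryonic chains encoded by Hba-x, Hbb-bh1 and Hbb-y, and circulates as nucleated cells. Definitive red cells from the fetal liver, and later from the bone marrow, use the adult chains. Within each cluster the embryonic genes lie upstream of the adult ones. Red cells reach every tissue with the blood, so their RNA is part of any heart sample from which blood was not removed, and the sources used here do not say whether it was.

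The study took total RNA from the heart ventricle of C57BL/6 mice at stages E10.5 and E13.5, named for the embryonic day, and at 8 weeks of age (Adult), with no allele or treatment distinguishing the groups. Each stage is a single stranded total RNA library, and how many animals went into each is not given in the sources used here. With 1 library per stage there is no replicate error and no test, and every difference below compares those libraries. Levels are FPKM values, in which fragments are scaled to exon length and to the mapped fragments of the library, and a difference is called only by its size, when it passes 2 on the log2(FPKM + 1) scale.

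The libraries carried cardiomyocyte RNA at every stage. The 9 cardiomyocyte markers examined lay between 73.1 and 7790 FPKM at E10.5, between 18.8 and 12217 at E13.5 and between 281 and 11568 in the adult. Of the 20117 loci matching a RefSeq mRNA, 12569 reached 1 FPKM in at least 1 library, all 8 member loci among them. The median change of these 12569 loci was 0.17 from E10.5 to E13.5, -0.50 from E13.5 to Adult and -0.40 from E10.5 to Adult on the log2(FPKM + 1) scale. Median-of-ratios factors are set by the median ratio of mRNA loci expressed in every library. With them these medians were 0.06, -0.02 and -0.02, small by construction and no check of the scaling. Read totals were not used here. The low values of loci of 500 to 700 nt were spaced so that 1 fragment was worth roughly 0.0775, 0.0425 and 0.0625 FPKM times length in kb in the E10.5, E13.5 and Adult libraries. For loci of 1500 to 2200 nt, the class used for Gata1, these values were 0.0625, 0.0375 and 0.0475. They give an approximate number of fragments behind a low value.

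The promoters show what these genes have in common and where they differ. The RefSeq windows (GRCm38.p6) run from 250 bases before to 50 after the start site and were found for 8 of the member names, with Hbb-bh1 not among them. The 120 bases before the start are printed below for 6 of them, namely the strongest embryonic gene of each cluster, an adult alpha-globin gene, both adult beta-globin genes and Alas2, and Hba-a2 is left out because its window nearly repeats that of Hba-a1. Capitals mark letter matches on either strand. The motif letters searched were AGATAA with its alternative form TGATAA for the core that GATA factors bind, the letters CACCC for the core of Krüppel-like factors, the CCAAT box by its own letters, TATAAA with its globin variant CATAAA for the TATA box, TGAGTCA with its reverse complement TGACTCA for NF-E2, and lastly the letters TGACCA for the core that BCL11A binds. The windows are chr7:103853208-103853327 (minus strand) for Hbb-y, chr7:103827929-103828048 (minus) for Hbb-bs, chr7:103813924-103814043 (minus) for Hbb-bt, chr11:32276480-32276599 (plus) for Hba-x, chr11:32283552-32283671 (plus) for Hba-a1 and chrX:150547297-150547416 (plus) for Alas2.
Hbb-y: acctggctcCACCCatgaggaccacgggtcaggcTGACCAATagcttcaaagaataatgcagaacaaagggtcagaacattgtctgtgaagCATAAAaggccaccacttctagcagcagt
Hbb-bs: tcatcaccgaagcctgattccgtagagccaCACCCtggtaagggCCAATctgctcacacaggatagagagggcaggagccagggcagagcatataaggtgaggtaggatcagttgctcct
Hbb-bt: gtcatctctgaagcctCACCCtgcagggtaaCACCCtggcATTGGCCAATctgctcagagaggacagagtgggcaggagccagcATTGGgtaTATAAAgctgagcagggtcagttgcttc
Hba-x: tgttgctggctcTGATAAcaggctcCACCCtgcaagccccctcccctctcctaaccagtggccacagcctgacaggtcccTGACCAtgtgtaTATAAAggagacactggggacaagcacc
Hba-a1: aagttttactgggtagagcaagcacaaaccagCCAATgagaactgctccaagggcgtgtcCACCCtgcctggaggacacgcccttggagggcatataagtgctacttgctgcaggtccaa
Alas2: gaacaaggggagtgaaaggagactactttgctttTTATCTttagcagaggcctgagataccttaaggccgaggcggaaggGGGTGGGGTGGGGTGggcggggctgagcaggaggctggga

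CACCC letters were in the 300-base window of 8 of the 8 members, against 57.5% of the 32851 RefSeq promoter windows. GATA letters were in 6 of 8 windows, against 18.6% of all windows, and the 2 without them were Hbb-bt and Gata1. CCAAT letters were in 5 of 8 windows, those of Hbb-y, Hbb-bs, Hbb-bt, Hba-a1 and Hba-a2, against 37.4% of all windows. The TATA letters were in 4 of 8, against 22.8%, and in Hbb-y, Hbb-bt and Hba-x a match began 28 or 29 bases before the start. The printed bases of Hbb-bs and Hba-a1 hold the run tataag near the start, which the search did not include. Lack of the searched letters is therefore not lack of a similar run. NF-E2 letters occurred in Hbb-bs alone, 27 bases after the start, against 5.2% of all windows. The BCL11A core occurred in 2 of 8, Hbb-y and Hba-x, against 13.6%. In Hbb-y it overlaps the CCAAT letters, which together read TGACCAAT, and its GATA match overlaps a CATAAA match farther upstream. The CCAAT letters nearest the start on the plus strand lay 83, 76, 75 and 88 bases before it in Hbb-y, Hbb-bs, Hbb-bt and Hba-a1. A match is a run of letters and not a measured site, and with this few members and short motifs the shares are only a description.

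**Figure D1:**
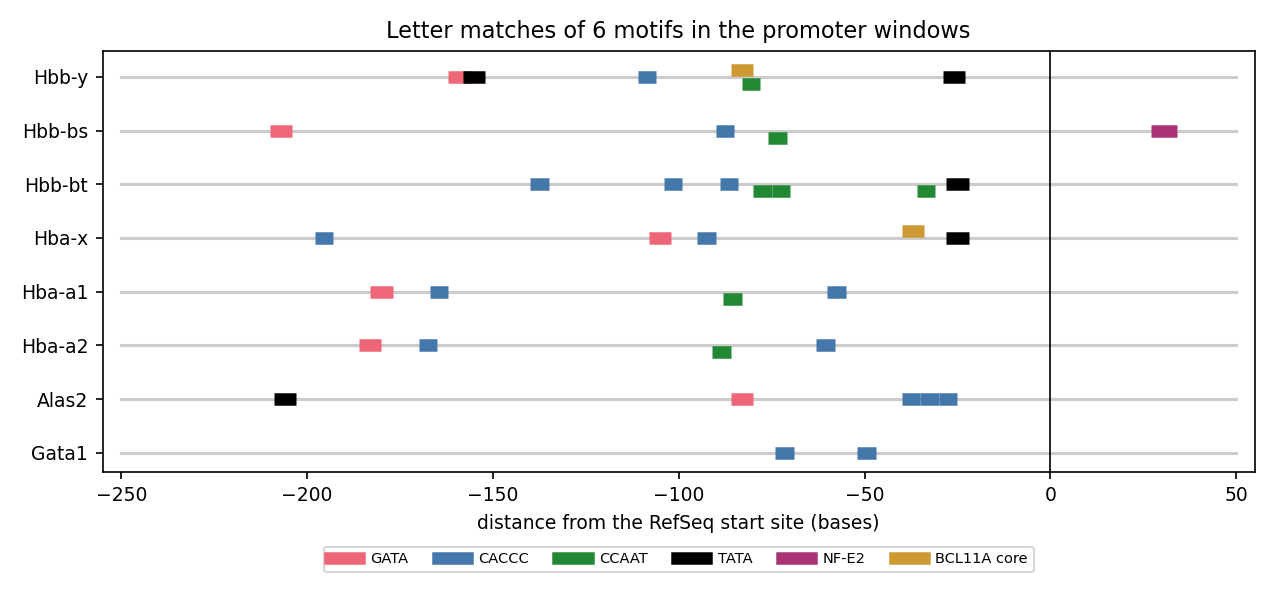
Positions of the letter matches of 6 motifs in the promoter windows of 8 members, with the distance from the RefSeq start site in bases on the horizontal axis and 1 gene per line. CACCC matches occur on 8 of the 8 lines, and the BCL11A core on those of Hbb-y and Hba-x.

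The beta-like cluster changed its leading gene between the libraries. Hbb-y, which encodes an embryonic beta-like chain and lies at chr7:103851754-103853207 on the minus strand (mm10, as for every locus here), was at 4356 FPKM in the E10.5 library, 15112 in the E13.5 library and 2.87 in adult ventricle. Among the 20117 mRNA loci it held rank 3 at E10.5, rank 1 at E13.5 and rank 9180 in adult ventricle. It was 3.47-fold higher at E13.5 than at E10.5, a difference of 1.79 on the log2(FPKM + 1) scale that does not pass 2, and 5258-fold higher at E13.5 than in the adult. The adult value corresponds to about 28.5 fragments.

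Hbb-bh1, the other embryonic beta-like gene (chr7:103841638-103843162, minus strand), was at 1314 FPKM in the E10.5 library, 366 in the E13.5 library and 0.0842 in adult ventricle. Unlike Hbb-y it was already lower at E13.5, by 3.59-fold, a difference of -1.84 that lies just short of the threshold. Its adult value is no more than about 1 fragment, so no fold is given against it. The ratio of Hbb-y to Hbb-bh1 was 3.32 at E10.5 and 41.3 at E13.5.

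The adult beta-globin locus joins the neighbouring Hbb-bs and Hbb-bt genes at chr7:103812524-103827946 on the minus strand, and C57BL/6 mice carry this pair as their adult beta-globin genes. It was at 131 FPKM in the E10.5 library, 1320 in the E13.5 library and 1423 in adult ventricle. The E13.5 level was 10.1-fold above that of E10.5 (3.33 on the log2 scale), and the Adult level was 1.08-fold above that of E13.5. That small later difference was 0.11 on the log2 scale and became 0.69 with median-of-ratios factors. The locus ranked 358 among mRNA loci in the E10.5 library, 26 in the E13.5 library and 20 in adult ventricle.

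How much of the adult beta signal came from Hbb-bs and how much from Hbb-bt cannot be read from these files. The locus holds 4 transcripts, of which 3 match RefSeq models and 1 was assembled across both genes. The Hbb-bs and Hbb-bt transcripts were 92.8% identical over 625 aligned bases, and 331 of the 540 windows of 100 bases in Hbb-bs, the length of a read, occurred unchanged in Hbb-bt. The embryonic beta-like transcripts were 69.9% to 73.8% identical to each other and to the adult ones, and shared no window of 100 bases with them.

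As a share of all beta-like FPKM, the embryonic pair made up 97.7% in the E10.5 library, 92.1% in the E13.5 library and 0.207% in adult ventricle. Within that pair the share of Hbb-bh1 in beta-like FPKM was 22.6% in the first library and 2.18% in the second, and that of Hbb-y 75.1% and 90.0%. The adult locus held 2.25%, 7.86% and 99.8% in the same order. At E13.5 the adult beta-globin locus was thus abundant in FPKM and still a small part of the beta-like total.

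In the alpha-like cluster the adult genes already held the larger share at E13.5. Hba-x, which encodes the embryonic alpha-like (zeta) chain at chr11:32276600-32278115 on the plus strand, was at 1057 FPKM in the E10.5 library, 827 in the E13.5 library and 0.0946 in adult ventricle. The embryonic libraries differed by 1.28-fold (-0.35 on the log2 scale), and the adult value is again about 1 fragment.

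The Hba-a genes encode the adult alpha chain and lie in 2 copies on the plus strand. Hba-a locus 1 (chr11:32283672-32284493) was at 382 FPKM in the E10.5 library, 1533 in the E13.5 library and 130 in adult ventricle. Hba-a locus 2 (chr11:32296489-32297310) was at 10.1, 199 and 51.9 FPKM in the same libraries. Both were highest at E13.5, with locus 1 above locus 2 by 37.9-fold in the E10.5 library, 7.69-fold in the E13.5 library and 2.50-fold in adult ventricle. The transcripts of the copies were identical in 558 of 559 bases and shared 360 of 460 windows of 100 bases, so the division between them rests on few bases. How reads that match both copies were divided is not given in the sources used here.

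Summed over both copies, the adult alpha-globin level was 392 FPKM in the E10.5 library, 1732 in the E13.5 library and 182 in adult ventricle. The sum was 2.14 higher at E13.5 than at E10.5 on the log2(FPKM + 1) scale and 3.25 lower in the adult than at E13.5. Hba-x was 72.9% of alpha-like FPKM in the E10.5 library, 32.3% in the E13.5 library and 0.0521% in adult ventricle. At E13.5 adult genes therefore held 67.7% of alpha-like FPKM but 7.86% of beta-like FPKM, as the bars of globin composition show.

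**Figure D2:**
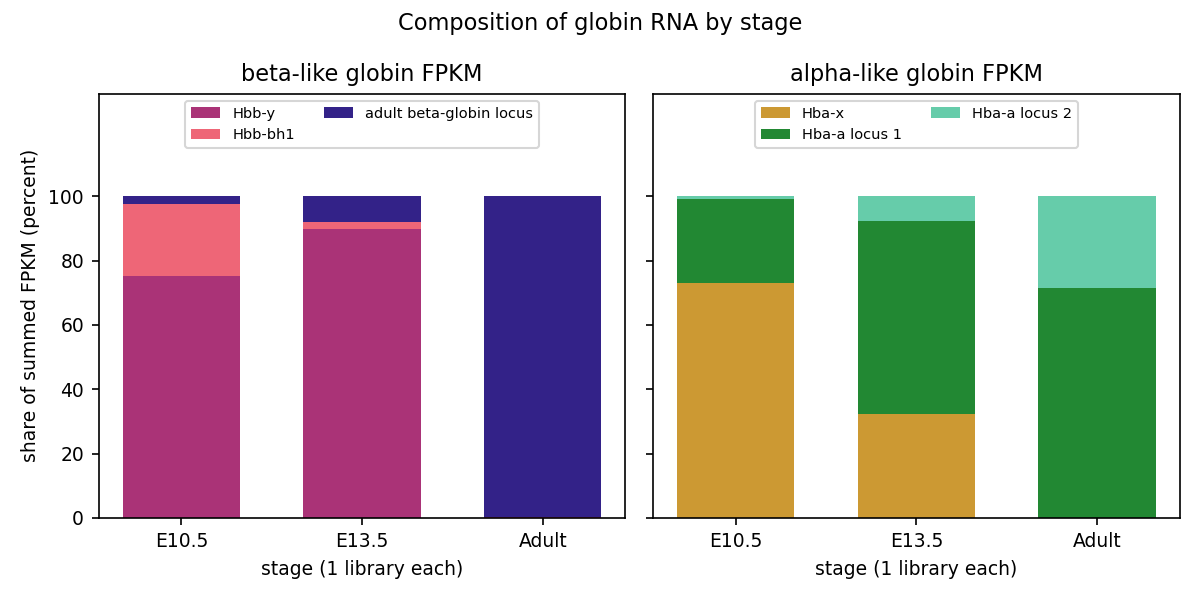
Share in percent of the summed beta-like (left) and alpha-like (right) globin FPKM held by each locus, for the single library of each stage. At E13.5 Hbb-y takes 90.0% of the beta-like bar while Hba-x takes 32.3% of the alpha-like bar, and in the adult the embryonic genes take 0.207% and 0.0521%.

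The embryonic loci came before the adult loci in both clusters. Counted from the start of Hbb-y in the direction of transcription, Hbb-bh1 began 10.05 kb and the adult beta-globin locus 25.3 kb downstream. From the start of Hba-x, the Hba-a loci began 7.07 and 19.9 kb downstream. Among the member loci, the E10.5 level was lower at each step along each cluster, from 4356 through 1314 to 131 FPKM among beta-like and from 1057 to 382 to 10.1 FPKM among alpha-like loci. In the adult the embryonic loci were at 2.87 FPKM or less and the adult loci at 51.9 FPKM or more, and of the 2 Hba-a loci the proximal copy was again the higher. At E13.5 the middle gene was the lowest in the beta-like cluster and the highest in the alpha-like cluster. The alpha-like step from 382 to 10.1 FPKM and the higher proximal copy depend on how reads were divided between the near-identical Hba-a copies. That division rests on few bases, so these alpha-like differences by position are not resolved here.

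**Figure D3:**
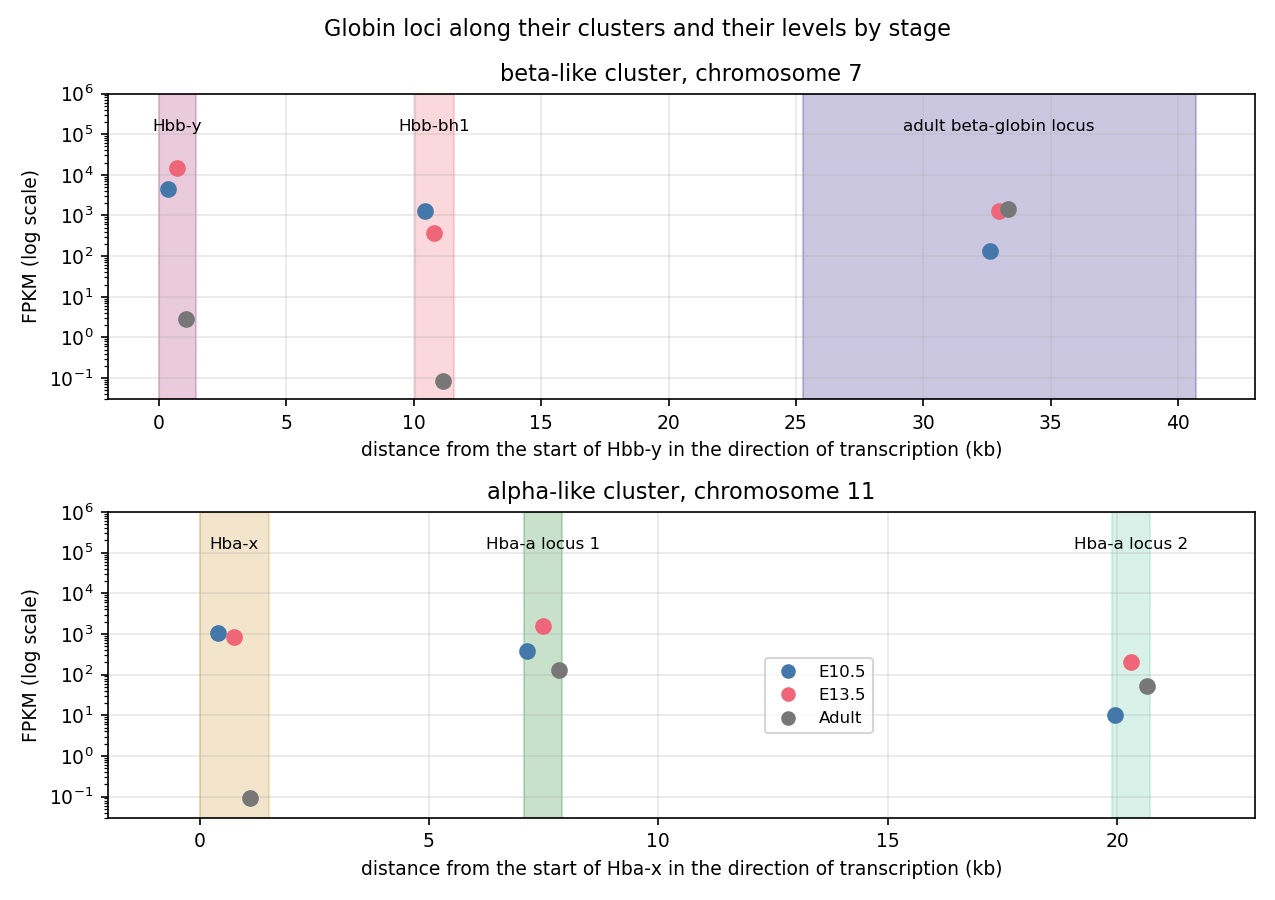
Level in FPKM (log scale) of each member globin locus against its distance in kb from the start of the most upstream member of its cluster, with shaded spans for the loci and points for the single library of each stage (offset sideways to be visible). The E10.5 points step down from left to right in both clusters, from 4356 to 131 FPKM and from 1057 to 10.1 FPKM. The last alpha-like step lies between near-identical Hba-a copies, whose division rests on few bases.

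The clusters hold further genes of the same family at low level. Hbb-bh2, between Hbb-bh1 and the adult beta-globin locus, was at 0.245, 0.136 and 0.0947 FPKM in the E10.5, E13.5 and Adult libraries. The theta-globin genes Hbq1b and Hbq1a, which follow the Hba-a loci, were at 1.06, 1.56 and 0.0826 FPKM and, for Hbq1a, at 0.680 FPKM at E13.5 and listed at 0 in the other libraries. Nprl3, the neighbouring gene upstream of Hba-x on the opposite strand, was at 9.83, 9.14 and 7.23 FPKM.

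Assembled loci of no reference gene lay within 50 kb of 4 member loci. An unspliced transcript on the minus strand at chr7:103882435-103883095, 29228 bases upstream of Hbb-y, 39273 upstream of Hbb-bh1 and beyond the olfactory receptor gene Olfr66, was at 49.5, 70.8 and 82.9 FPKM in the E10.5, E13.5 and Adult libraries. It was the only unmatched locus among these above 3 FPKM, and its order of levels is not that of Hbb-y. A further locus lay 48907 bases downstream of the adult beta-globin locus and was at most at 0.229 FPKM. Beside Alas2 lay a pair of unspliced minus-strand loci, 19142 and 4205 bases upstream, at 0.878 and 0.791 FPKM at E10.5, 0.145 and 0.175 at E13.5 and 2.22 and 1.65 in the adult. The 4 loci have a single exon each.

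The 6 hemoglobin loci among the members together gave 7249 FPKM in the E10.5 library, 19357 in the E13.5 library and 1607 in adult ventricle. That was 2.13%, 4.46% and 0.486% of the FPKM summed over mRNA loci. In these bulk samples fewer red cells and less globin RNA per red cell cannot be told apart. Alpha-like FPKM was below beta-like FPKM in each library, with a ratio of 0.250 in the E10.5 library, 0.152 in the E13.5 library and 0.127 in adult ventricle. Among the adult genes alone the ratio of alpha to beta was 3.002 in the E10.5 library, 1.31 in the E13.5 library and 0.128 in adult ventricle, and among the embryonic genes it was 0.187, 0.0534 and 0.0320. Hba-a carries the near-identical copies described above, and Hbb-bs shares 331 of 540 windows of 100 bases with Hbb-bt. The part of either in the shares and ratios was not tested.

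**Figure D4:**
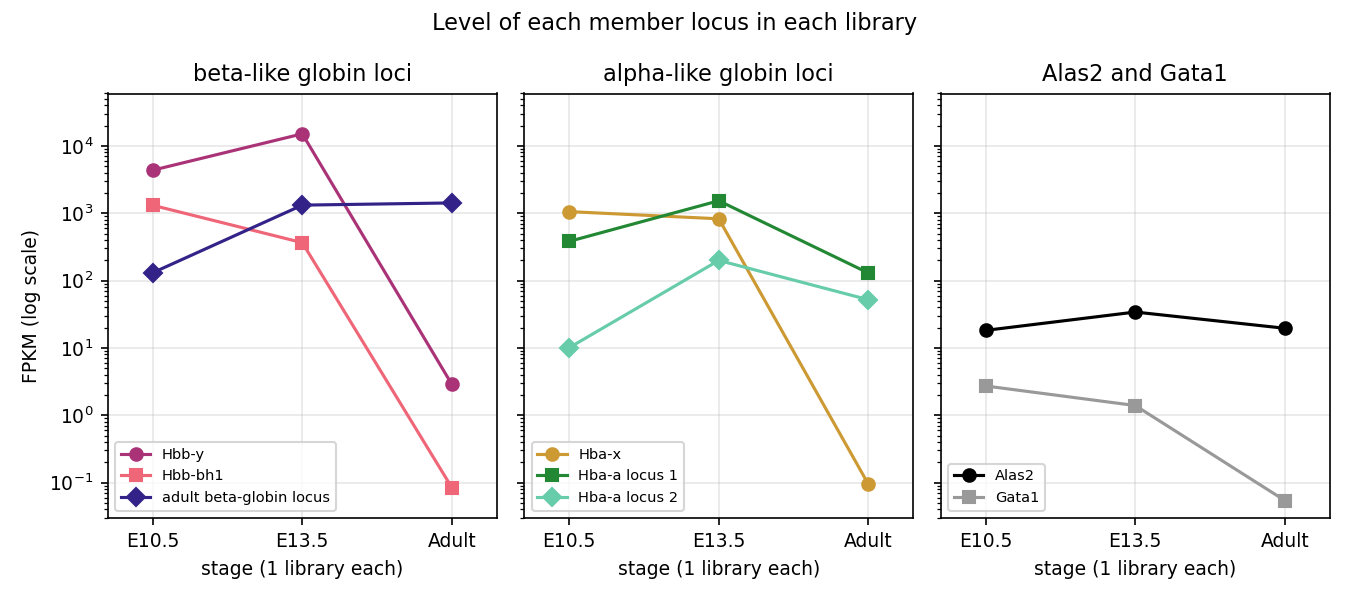
FPKM (log scale) of the 8 member loci in the E10.5, E13.5 and Adult libraries, 1 library per point, with beta-like loci on the left, alpha-like loci in the middle and Alas2 and Gata1 on the right. The embryonic globins drop to 2.87, 0.0842 and 0.0946 FPKM in the adult, while the adult beta-globin locus stays at 1320 and 1423 FPKM and Alas2 between 18.2 and 34.1 FPKM.

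Alas2 encodes the erythroid form of 5-aminolevulinate synthase, the enzyme that starts heme synthesis. It lies at chrX:150547417-150570622 on the plus strand and was at 18.2 FPKM in the E10.5 library, 34.1 in the E13.5 library and 19.6 in adult ventricle. The middle library was 1.87-fold above the first and 1.74-fold above the adult, and neither difference passes 2 on the log2 scale. Adult and E10.5 differed by 1.07-fold. In the adult library Alas2 was therefore near its E10.5 level while the embryonic globins were not, and globin FPKM per Alas2 FPKM was 398 in the E10.5 library, 567 in the E13.5 library and 82.1 in adult ventricle.

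Beside 2 RefSeq transcripts, the Alas2 locus holds 3 assembled ones, which begin 4.51 and 10.3 kb downstream of the annotated start. Its span overlaps that of Apex2 on the opposite strand, a DNA repair gene at 7.62, 4.03 and 4.61 FPKM, and whether strand was used in the counting is not given in the sources used here. Alas1, which encodes the form of the enzyme found in all tissues, was at 22.3, 35.1 and 104 FPKM, a difference of 2.17 on the log2 scale between E10.5 and Adult. The ratio of Alas2 to Alas1 was 0.819 in the E10.5 library, 0.973 in the E13.5 library and 0.189 in adult ventricle.

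Gata1 encodes the zinc finger transcription factor required for red cell and megakaryocyte maturation, and lies at chrX:7959260-7967815 on the minus strand. It was at 2.72 FPKM in the E10.5 library, 1.40 in the E13.5 library and 0.0542 in adult ventricle, where about 2 fragments stand behind the value. Its level at E13.5 was 1.95-fold below that at E10.5, opposite in direction to Alas2 and to the summed globins. The differences of -1.18 from E13.5 to Adult and -1.82 from E10.5 to Adult do not pass 2, and with a pseudocount of 0.1 they were -3.28 and -4.19. The deposited Gata1 transcript starts 95 bases downstream of the start used for its RefSeq promoter window.

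The order of levels differed in each library. At E10.5 it ran Hbb-y, Hbb-bh1, Hba-x, Hba-a locus 1, adult beta-globin locus, Alas2, Hba-a locus 2 and Gata1. At E13.5 it ran Hbb-y, Hba-a locus 1, adult beta-globin locus, Hba-x, Hbb-bh1, Hba-a locus 2, Alas2 and Gata1. In the adult it ran adult beta-globin locus, Hba-a locus 1, Hba-a locus 2, Alas2, Hbb-y, Hba-x, Hbb-bh1 and Gata1. Neighbours in these orders as close as 1533 and 1320 FPKM, or 0.0946 and 0.0842 FPKM, cannot be ranked without replicates.

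From E10.5 to E13.5, 3 of the 8 loci were higher past 2, the adult beta-globin locus and both Hba-a loci, against 0.851% of the 12569 expressed mRNA loci. None was lower past 2, against 0.247% of those loci. Hba-a locus 1 sits at the threshold with 2.001, and was at 1.87 with median-of-ratios factors. The values just outside were -1.84 for Hbb-bh1 and 1.79 for Hbb-y. The median change of the 8 loci was 1.33, beside 0.17 for the expressed mRNA loci.

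From E13.5 to Adult, 4 of the 8 loci were lower past 2, namely Hbb-y (-11.93), Hba-x (-9.56), Hbb-bh1 (-8.40) and Hba-a locus 1 (-3.55), against 9.88% of expressed mRNA loci. None was higher past 2, against 4.41%. Median-of-ratios factors turned this background to 6.04% lower and 7.26% higher, and left the count of members at 4. Hba-a locus 2 was just outside at -1.92. The median change of the members was -2.74, beside -0.50.

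From E10.5 to Adult, the 3 embryonic globins were lower past 2, at -10.24 for Hbb-bh1, -10.14 for Hbb-y and -9.92 for Hba-x, against 8.1% of expressed mRNA loci. With a pseudocount of 0.1 these became -12.80, -10.52 and -12.41, so that the size and the order of the Hbb-bh1 and Hba-x values depend on the pseudocount. The adult beta-globin locus (3.43) and Hba-a locus 2 (2.26) were higher past 2, against 5.59%. With median-of-ratios factors the background was 5.88% lower and 8.17% higher. Hba-a locus 1 was 2.95-fold lower in the adult (-1.55) while Hba-a locus 2 was 5.15-fold higher, so the near-identical copies differed in sign between the outer stages. Their sum was lower in the adult (-1.11). The 3 comparisons share their libraries and are not independent of each other.

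The remaining genes of red cell biology were examined as lists of 55 measured genes. From E10.5 to E13.5, 0 of the 55 passed 2 in either direction. From E10.5 to Adult 6 were lower and 3 higher past 2, with a median of -0.61 beside -0.40 for all expressed mRNA loci, and 41 of the 55 (74.5%) had their lower value in adult ventricle, beside 64.7% of those loci. The counts past 2 are 10.9% and 5.45% of the genes, beside 8.1% and 5.59% of expressed mRNA loci. With a pseudocount of 0.1 the count of lower genes was 16 (29.1%), beside 13.49% of expressed mRNA loci on that scale. From E13.5 to Adult, 5 were lower and 3 higher past 2, which is 9.09% and 5.45% beside 9.88% and 4.41%, with 2 lower under median-of-ratios factors. A lower value in the adult was found for 42 (76.4%), beside 66.9%.

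Heme synthesis and mitochondrial iron genes differed little. Of 13 genes beside Alas2, 0 passed 2 in any comparison, and their medians were 0.05, -0.30 and -0.15 from E10.5 to E13.5, E13.5 to Adult and E10.5 to Adult. With median-of-ratios factors the median of the list with Alas2 turned from -0.13 to 0.28 between E10.5 and Adult. Glrx5, which serves iron-sulfur cluster assembly, was at 87.6, 140 and 53.0 FPKM in the E10.5, E13.5 and Adult libraries. Alad, the second enzyme of the pathway, was at 76.0, 36.7 and 20.5 FPKM. The transferrin receptor gene Tfrc, the route of iron into cells, was at 72.2, 27.1 and 50.6 FPKM, and Urod, a later enzyme of the pathway, at 44.5, 59.6 and 48.3 FPKM.

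Erythroid transcription factors were mostly at low level. Of 12 genes beside Gata1, 10 had a lower Adult than E10.5 value, beside 64.7% of expressed mRNA loci. Past 2, 2 were lower, beside 8.1% of those loci. These were Zfpm1, which encodes the Gata1 cofactor FOG1, at 11.4, 10.6 and 1.43 FPKM, and Klf1, the erythroid Krüppel-like factor, at 3.61, 1.602 and 0.1197 FPKM. Tal1 was at 9.51, 7.78 and 1.70 FPKM and Lmo2 at 11.99, 16.6 and 14.6 FPKM. Ldb1, which bridges these factors, was at 32.6, 45.3 and 10.3 FPKM and passed 2 only from E13.5 to Adult (-2.03). Bcl11a and Sox6, repressors of embryonic globin genes in definitive red cells, were at 2.50, 4.68 and 1.71 FPKM and at 4.41, 3.38 and 4.79 FPKM.

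Of 14 red cell membrane genes, 9 were lower and 5 higher in the adult than at E10.5, beside 64.7% of expressed mRNA loci lower. Slc4a1, the anion exchanger band 3, was at 19.0, 17.0 and 0.563 FPKM, 33.8-fold below its E10.5 level in the adult. It passed 2 from E10.5 to Adult (-3.68), and Epb42, protein 4.2, passed it from E13.5 to Adult (-2.08). Ank1, an ankyrin that is also expressed in muscle, went the other way at 4.25, 3.42 and 61.7 FPKM (3.58). The other genes with the highest level in any library were Tmod1, tropomodulin, which heart muscle also expresses, at 72.0, 58.8 and 58.0 FPKM, Cd59a, joined with Cd59b in 1 locus, at 18.3, 20.3 and 54.3 FPKM, and Epb41 at 17.9, 15.4 and 26.1 FPKM. Over the 14 genes, 1 was lower and 1 higher past 2 between E10.5 and Adult, beside 8.1% and 5.59% of expressed mRNA loci. Their median was -0.20, beside -0.40 for those loci, and became 0.23 with median-of-ratios factors.

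The other erythroid genes gave 3 lower and 2 higher past 2 of 16 measured between E10.5 and Adult, beside 8.1% and 5.59% of expressed mRNA loci. Hemgn, a nuclear protein of blood cell precursors, was at 6.33, 1.08 and 0.0409 FPKM (-2.82). Car2, a carbonic anhydrase, was at 26.6, 43.4 and 3.78 FPKM (-2.53), and Add2, a beta adducin, at 3.57, 2.53 and 0.0397 FPKM (-2.14). Aqp1, a water channel that blood vessel lining also expresses, was higher at 7.41, 20.01 and 95.5 FPKM (3.52), and Alox15 was at 0.0781, 0.139 and 4.02 FPKM (2.22). Prdx2, an abundant red cell peroxiredoxin used by many cells, was at 439, 546 and 268 FPKM, and Bpgm, which makes 2,3-bisphosphoglycerate, at 17.1, 36.1 and 14.9 FPKM. The median of the list was -0.83.

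Of the 3 globins outside the red cell, Mb and Cygb were higher past 2 between E10.5 and Adult and Ngb stayed near 0. Myoglobin (Mb), the oxygen store of muscle, was at 278, 228 and 8914 FPKM, 4.999 higher in the adult than at E10.5 on the log2 scale. Cygb, cytoglobin, was at 1.07, 0.944 and 13.9 FPKM (2.84), and Ngb, neuroglobin, was at 0.0502, 0.158 and 0.0375 FPKM. In the adult library myoglobin was above the summed FPKM of the 6 hemoglobin loci. Among genes that handle free heme and hemoglobin, Hmox1 was at 8.63, 8.75 and 12.5 FPKM, Hp, haptoglobin, at 0.0372, 0.154 and 3.19 FPKM (2.02), and Hpx did not exceed 0.192 FPKM.

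**Figure D5:**
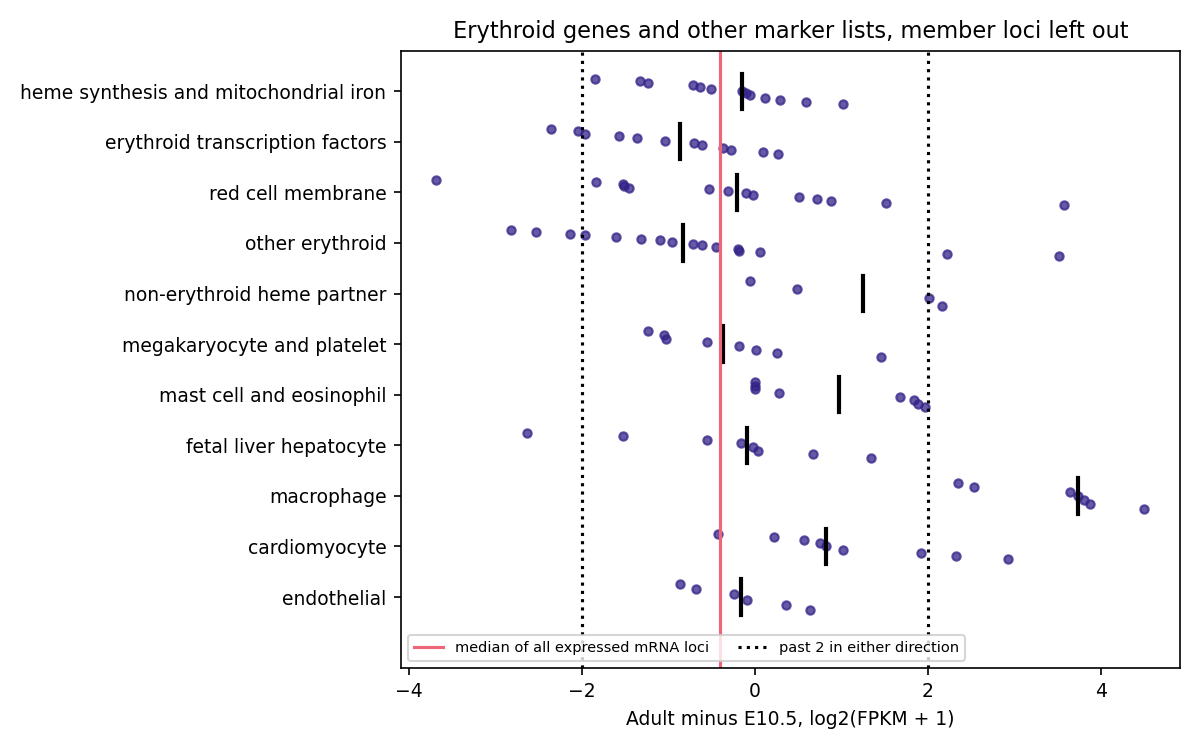
Difference between the Adult and E10.5 libraries on the log2(FPKM + 1) scale for each gene of 11 lists, member loci left out, with black bars for list medians, a red line for the median of all expressed mRNA loci (-0.40) and dotted lines at 2 in either direction. Slc4a1 (-3.68) is the leftmost point of the red cell membrane list and Ank1 (3.58) the rightmost, while the 7 macrophage genes all lie above 2.

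Markers of other cells that blood or a ventricle sample can hold moved as well, and their part in the results was not tested. Of 8 megakaryocyte and platelet genes, 0 passed 2 in any comparison, with summed levels of 25.6, 39.7 and 45.7 FPKM, and Gata1 is active in those cells too. Pf4, a platelet chemokine, was at 13.1, 21.6 and 37.6 FPKM, Ppbp at 5.37, 7.49 and 5.46, Gp1bb, in a joined locus, at 1.38, 5.80 and 1.85, and Itga2b at 2.45, 2.43 and 0.468. The 8 mast cell and eosinophil genes, further cells that use Gata1, summed to 0.141, 1.66 and 11.1 FPKM. The highest in the adult were Cma1 at 3.14, Tpsb2 at 2.70, Mcpt4 at 2.59 and Cpa3 at 2.48 FPKM. Ms4a2 was listed at 0 in the 3 libraries. The eosinophil genes Prg2 and Epx did not share the adult rise. They were at 0.462 and 0.0231 FPKM at E13.5 and listed at 0 at E10.5 and in the adult.

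Of 8 fetal liver hepatocyte genes, 8 were higher at E13.5 than at E10.5 and 0 of them past 2, with sums of 14.5, 40.0 and 18.0 FPKM. Most expressed mRNA loci were also higher at E13.5, with a median change of 0.17. Of those loci 37.0% were lower, and 0.851% were higher past 2. The median level of the 8 genes at E10.5 was 0.540 FPKM, so several values are low. Afp was at 5.36, 10.7 and 0.0220 FPKM (-2.64 from E10.5 to Adult), Apoa2 at 0.475, 4.51 and 1.36, Ttr at 0.605, 3.09 and 0.0927, and Trf, which the heart also makes, at 5.87, 16.9 and 16.4. Alb was at 0.119 and 2.20 FPKM in the embryonic libraries and listed at 0 in the adult. All 7 macrophage genes were higher past 2 between E10.5 and Adult, beside 5.59% of expressed mRNA loci, with sums of 7.43, 54.9 and 179 FPKM. The leading genes were C1qb at 1.29, 21.9 and 51.0 FPKM, C1qa at 2.49, 17.4 and 42.6, Csf1r at 0.729, 6.01 and 24.4, Adgre1 at 0.511, 4.24 and 20.1 and Mrc1, in a joined locus, at 0.837, 3.06 and 23.6. The 6 endothelial genes summed to 290, 214 and 283 FPKM, with 0 past 2. Pecam1 was at 46.5, 47.6 and 72.8 FPKM and Emcn at 68.3, 63.8 and 57.8, while Kdr at 48.1, 20.3 and 61.9 and Cdh5 at 50.2, 12.9 and 47.2 were lowest at E13.5.

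The mRNA loci most like Hbb-y were sought by the distance between the log2(FPKM + 1) values of the 3 libraries after centring. They included Tnni1 (1.42), Myl4 (1.48), Myl7 (1.62) and the histone gene Hist1h4a (1.98). The joined Myh6 and Myh7 locus came first by this measure (1.22), but its place rests on an Adult value listed at 0. Myh6 encodes the main myosin heavy chain of adult mouse ventricle, and in a table without counts a 0 can be a failed estimate, so it is not read as a low level. Tnni1, Myl4 and Myl7 are sarcomere genes, which were between 2164 and 2453 FPKM at E10.5, between 1935 and 2440 at E13.5 and between 0.719 and 1.42 in the adult. Hist1h4a, at 278, 954 and 0.327 FPKM, was the only locus of the 5 that was, like Hbb-y, over 3-fold higher at E13.5 than at E10.5.

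The loci most like Alas2 were Tnfaip8l1, Itga8, Ngfr, Fxr2 and Zfp358, at distances of 0.0151 to 0.0326. Each was highest at E13.5 with similar log2(FPKM + 1) values on either side, for example Fxr2 at 23.6, 43.9 and 24.9 FPKM and Itga8 at 3.03, 6.47 and 3.37 FPKM. Ngfr, at 0.168, 1.17 and 0.268 FPKM, is so low that its place depends on the added 1. None of the 5 is on the erythroid lists. The likeness covers 3 libraries and says nothing of shared control.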

How the data were processed

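Total RNA of heart ventricle was sequenced as 1 paired-end library per stage. The authors mapped reads to mm10 with Tophat2 and Bowtie and assembled and quantified transcripts with Cufflinks, per the labels and the study's methods (minor versions not given in the sources used here), and deposited FPKM values per assembled locus with a transcript annotation. FPKM is normalised to mapped fragments and transcript length, so it depends on all other RNA in a library. The deposited annotation was taken as GRCm38, since 99.6% of its 185861 introns in RefSeq mRNA models occur in GENCODE M21.

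Loci were taken by gene name, then by RefSeq accession, from the annotation. Differences were computed as log2(FPKM + 1) with a threshold of 2, against mRNA loci of at least 1 FPKM in 1 library, and described without a test. Members and lists were chosen with earlier results of these data known. Genes named from each list were up to 4 with the highest FPKM and up to 4 past 2 by size. Bcl11a, Sox6, Nprl3, Apex2, Olfr66, Alb, Ngb, Hbb-bh2, Ms4a2, Prg2, Epx and Add2 fall outside this rule and were named after their values were seen. Ahsp was not found. A further gene of the red cell membrane list is not reported here and was left out of its counts. Where a symbol had changed, RefSeq accessions were used. The globin transcripts were compared as nucleotides, with global alignment in Biopython 1.88, and their protein identity was not analysed here. The calculation of differences and scaling factors was tested on simulated data. Alternatives were a pseudocount of 0.1, 2 rescalings, thresholds of 1 and 3, no filter, FPKM times length, all loci as denominator, and joined loci left out. Python 3.11.15 and pandas 2.3.3 were used.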

Additional observations from a re-analysis of the deposited data

How the results depend on the processing

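No member difference changed sign under either rescaling. The pseudocount of 0.1 cannot alter a sign and says nothing on this point. The counts of members past 2 did depend on joined loci, without which 0 were higher from E10.5 to E13.5 and 0 from E10.5 to Adult, since those loci are the adult globins. Rescaling to mRNA loci without globin and mitochondrial loci, or a threshold of 1, gave 1 member lower from E10.5 to E13.5. A threshold of 3 left 1 member higher from E10.5 to Adult, and a threshold of 1 gave 5 lower. Among the other erythroid genes a pseudocount of 0.1 gave 2, 17 and 16 lower from E10.5 to E13.5, E13.5 to Adult and E10.5 to Adult, beside 1.02%, 16.2% and 13.49% of expressed mRNA loci. Rescaling without globin and mitochondrial loci gave 1 lower from E10.5 to E13.5 and 2 from E13.5 to Adult, and median-of-ratios factors also gave 2 there. Over all loci of the table the globin share was 1.21% at E10.5 and 2.39% at E13.5. Without joined loci the ratio of alpha-like to beta-like FPKM was 0.0534 at E13.5 and 0.0320 in the adult, and the adult globin share of mRNA loci was 0.000997%, the joined loci being the adult genes. In all, 73 of 90 alternative values of these summaries stayed within 1.5-fold. That tally includes the counts with no filter, which alter only the background share. Those counts could not differ from the main ones and say nothing of stability. The same holds for FPKM times length. The hemoglobin loci, at 563 to 647 nt, are too alike in length for it to move a share or ratio by 1.5-fold. Depth limits the adult values of Hbb-bh1, Hba-x and Gata1, which rest on about 1 to 2 fragments. No paired analysis was possible because there is only 1 library for every stage.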
